A study of Homo sapiens with 21 samples.

Results

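Oxysterol-producing and metabolizing enzymes were examined as 9 genes of the 60651 human genes in the count table: CH25H, CYP27A1, CYP46A1, CYP7B1, CYP39A1, HSD3B7, SULT2B1, SOAT1 and CYP24A1. They were chosen by gene symbol as enzymes that make, hydroxylate, sulfate or esterify oxysterols and cholesterol. This rule uses no measured value, but earlier results of these data were known when the genes were chosen. RNA-seq was done on 21 subcutaneous tumors of A549-Luc2 cells, a luciferase-carrying line of the human lung adenocarcinoma line A549, in female athymic nu/nu mice that were 6 to 8 weeks old at injection. These mice lack T cells but keep other blood cells, vessels and stroma of their own. Dosing by daily gavage began after random assignment to 3 arms of 10 animals, at a mean tumor volume of 80 to 100 mm3, and 7 tumors per arm were sequenced. Controls received only the carrier, made of DMSO, ethanol, PEG400 and corn oil, and the treated animals received Oxy186 or Oxy210 in this carrier at 50 mg/kg. Both compounds are oxysterol derivatives, and the comparison asks how the cells' own oxysterol enzymes stood in tumors of mice dosed with them. The study did not measure compound levels in the tumors. All tumors come from 1 cell line, and p-values set a group difference against the spread between these tumors.

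Oxysterols are oxidized forms of cholesterol. A hydroxyl group is put on the side chain by CH25H, by CYP27A1 in mitochondria or by CYP46A1, best known from neurons. The products are then hydroxylated on the ring by CYP7B1 or CYP39A1 and oxidized further by HSD3B7 on the way to bile acids. They can also leave the active pool by sulfation through SULT2B1 or by esterification to fatty acids through SOAT1. CYP24A1 hydroxylates the side chain of vitamin D metabolites, which inactivates them, and is a well-known target gene of the vitamin D receptor VDR.

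Depth overlapped between the groups, with total counts on human genes of 13818998 to 17865119 per control tumor, 14008787 to 15776682 per Oxy186-treated tumor and 13787493 to 15758662 per Oxy210-treated tumor. Reads that aligned to the mouse genome were set aside by the authors, so the values describe human transcripts. Markers of epithelial cells were high in every tumor (KRT8, KRT18, KRT7, EPCAM and CDH1 summed to 6680 to 15239 CPM, where CPM is the count scaled to a common library size). In the order control, Oxy186 and Oxy210, the summed level of 7 macrophage and leukocyte markers was 5.10 to 9.0, 4.58 to 9.66 and 4.29 to 8.19 CPM. That of 4 endothelial markers was 1.47 to 5.77, 1.65 to 3.74 and 1.18 to 4.34 CPM, and that of 5 fibroblast markers 112 to 231, 99.7 to 260 and 76.7 to 156 CPM. COL1A1, LUM, PECAM1 and ITGAM held most of these counts, while the defining markers PTPRC (17 to 24 human counts per group of 7 tumors), CD163 (0 to 2), VWF (0 to 3) and PDGFRB (14 to 16) were near 0. No marker that passed the filter was called between groups of 7. Of the 3 fibroblast markers tested for Oxy210, DCN had a log2 fold change of -1.27 (unadjusted p = 0.000785, edgeR), LUM -0.50 (unadjusted p = 0.0301) and COL1A1 0.13 (unadjusted p = 0.540), and 8.12% of all genes were lower with an unadjusted p under 0.05. The stroma, vessels and leukocytes of the host are mouse cells whose reads were set aside, so these human counts do not measure their share. Whether the fibroblast marker genes bear on the values below was not tested. The libraries differed in how counts depended on the GC content of genes. The slope of log2 CPM per 10 percentage points of exon GC content was -0.15 to 0.40 in control, -0.51 to 0.49 in Oxy186-treated and -0.33 to 0.26 in Oxy210-treated tumors. Within the Oxy186 group it was -0.51 to -0.18 in samples r1-r4 and 0.08 to 0.49 in r5-r7. The study compared r1-r4 alone with the control group after a principal component analysis of the same data had set them apart, so values for this subset are given below as a description beside those for all 7 tumors.

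Promoter sequences from RefSeq (GRCh38.p14) were matched by symbol for 6 of the 9 genes, and those of CYP7B1, CYP46A1 and CYP24A1 were not used here. The 250 bases before the start site are shown for CH25H, which was almost without counts in these tumors, and for HSD3B7, which was among the genes with the highest levels here, so that a barely detected and a well-detected enzyme gene can be read side by side. Capitals mark the letters GGGCGG, the core of a GC box, or CCGCCC, the same letters on the other strand.
CH25H, chr10:89207318-89207567, minus strand: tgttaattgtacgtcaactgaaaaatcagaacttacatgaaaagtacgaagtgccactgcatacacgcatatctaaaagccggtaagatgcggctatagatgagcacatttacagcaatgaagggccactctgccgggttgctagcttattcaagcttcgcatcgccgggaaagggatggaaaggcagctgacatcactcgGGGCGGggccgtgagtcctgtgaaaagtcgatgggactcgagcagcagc
HSD3B7, chr16:30984957-30985206, plus strand: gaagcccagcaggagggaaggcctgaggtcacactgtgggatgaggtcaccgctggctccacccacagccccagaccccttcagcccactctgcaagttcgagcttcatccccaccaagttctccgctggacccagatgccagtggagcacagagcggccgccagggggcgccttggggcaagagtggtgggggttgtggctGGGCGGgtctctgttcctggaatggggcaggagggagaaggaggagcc
The core begins 49 bases before the start site in CH25H and 48 bases before it in HSD3B7. The GC content of the window was 50.0% in CH25H and 65.6% in HSD3B7, against a median of 58.0% over all promoters. GGGCGG on either strand was found in 6 of 6 of these promoters and in 42.6% of all 35116 promoters of the same length. The letters TATAAA were found in 0 of 6 and in 10.7% of all promoters, on either strand. Both genes carried the core at nearly the same place, and a match to these letters is a description of the window only.

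Levels of different genes were compared as RPKM, which is CPM divided by exon length in kilobases. In the control group CYP24A1 stood far above the other enzymes, with 178 RPKM ± 53.6 (SD, n = 7; range 125 to 275), higher than 99.0% of the genes that passed the count filter. HSD3B7 followed with 11.7 ± 2.41 RPKM (9.20 to 16.0) and SOAT1 with 8.31 ± 0.78 RPKM (7.29 to 9.62). SULT2B1 had 3.25 ± 1.96 RPKM (1.55 to 6.37) and CYP7B1 1.89 ± 0.56 RPKM (1.05 to 2.66). CYP39A1 had 0.30 ± 0.15 RPKM (0.129 to 0.589), higher than 8.36% of the genes that passed. CYP27A1 (0.209 ± 0.152 RPKM), CYP46A1 (0.040 ± 0.031 RPKM) and CH25H (0.010 ± 0.018 RPKM) lay lower. The enzymes that hydroxylate the side chain of cholesterol were therefore the 3 genes with the lowest levels, while the genes for sulfation, esterification and 3β-oxidation were well detected. The ranges of neighbours in this order overlapped in the control group for HSD3B7 and SOAT1, for SULT2B1 and CYP7B1, for CYP39A1 and CYP27A1, for CYP27A1 and CYP46A1, and for CYP46A1 and CH25H. CYP24A1 and HSD3B7 did not overlap, nor did SOAT1 and SULT2B1 or CYP7B1 and CYP39A1. With the length of the longest transcript the order of the means was the same, but SULT2B1 then had 6.13 RPKM (2.92 to 11.99) and overlapped SOAT1 (7.45 to 9.82) and HSD3B7 (10.4 to 18.1), while HSD3B7 and SOAT1 no longer overlapped.

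**Figure D1:**
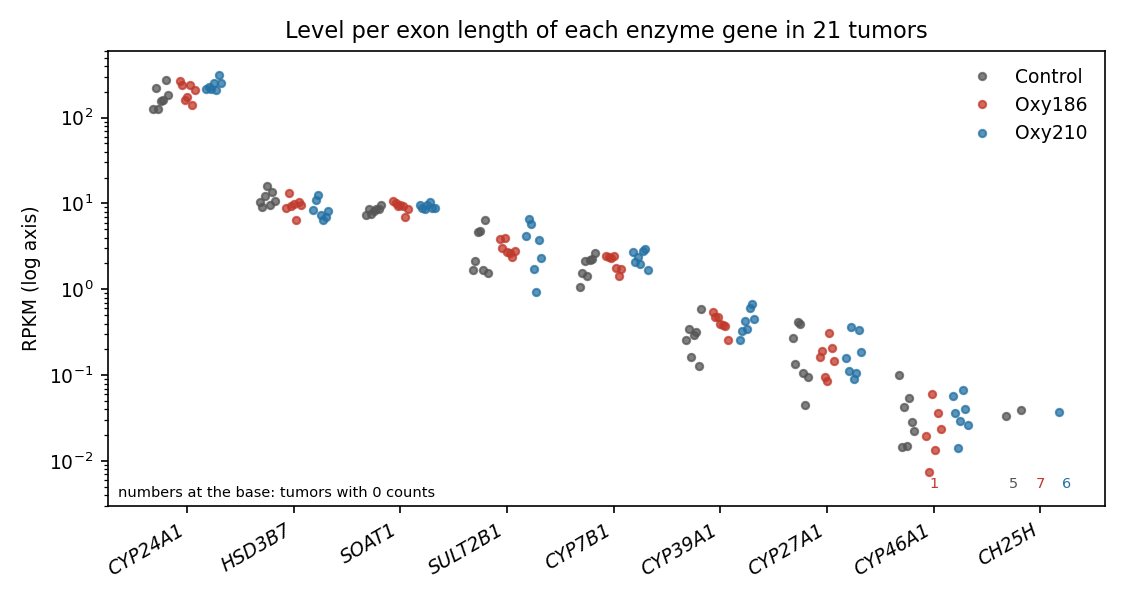
Level of each of the 9 enzyme genes per exon length (RPKM, log axis) in 21 tumors, 1 point per tumor, with control, Oxy186 and Oxy210 tumors side by side and the number of tumors with 0 counts at the base. CYP24A1 lay at 125 RPKM or higher in every tumor, CH25H had counts in 3 tumors, and the groups overlapped for every gene.

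CH25H, CYP27A1 and CYP46A1, the side chain hydroxylases of cholesterol, were too low to judge, since they did not pass the count filter in any of the 3 comparisons of 7 against 7 tumors. CH25H (chromosome 10, 89205629 to 89207317, minus strand, 1 exon; GRCh38), whose product 25-hydroxycholesterol is made in quantity by activated macrophages, had 0 counts in 18 of 21 tumors and 1 count in each of the other 3. Its summed count was 2 in the control group, 0 in the Oxy186 group and 1 in the Oxy210 group. The 0 counts over 104844844 counts of the Oxy186 group allow a level of up to 0.0286 CPM by a limit of 3 counts, and up to 0.0352 CPM by the upper end of the exact Poisson 95% interval, and both cover counting error only. At such counts a difference between the groups could not be detected at this depth. Host macrophages are mouse cells whose reads were set aside, so these counts do not describe the gene in them.

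CYP27A1 (chromosome 2, 218781749 to 218815293, plus strand) had 2, 6 and 22 counts in the lowest, median and highest control tumor. It had 4, 8 and 14 in Oxy186-treated and 4, 7 and 16 in Oxy210-treated tumors. CYP46A1 (chromosome 14, 99684298 to 99727301, plus strand) had 2 to 13 counts per control tumor, 0 to 8 per Oxy186-treated tumor and 2 to 10 per Oxy210-treated tumor. The summed level of CYP46A1 was 0.362 CPM (exact Poisson 95% interval 0.257 to 0.495) in the control group, 0.210 CPM (0.132 to 0.318) in the Oxy186 group and 0.374 CPM (0.266 to 0.511) in the Oxy210 group. These intervals overlap and cover counting error only, not the spread between tumors.

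The other 6 genes passed the filter in every comparison and went into the quasi-likelihood test of edgeR, with p-values adjusted over all genes tested (Benjamini-Hochberg) and genes called at an adjusted p of 0.05 or lower. In Oxy186-treated tumors 0 of the 6 enzyme genes were called against the control group, as were 0% of 16291 genes, and 0 of 6 had an unadjusted p under 0.05, against 3.79% of all genes. In Oxy210-treated tumors 0 of 6 were called, as were 0% of 16396 genes, and 2 of 6 had an unadjusted p under 0.05, against 13.8% of all genes. They were CYP24A1, higher, as 5.72% of all genes were at that p, and HSD3B7, lower, as 8.12% were. Between the 2 compounds, at the same dose, 0 of 6 were called, as were 0% of 16361 genes, and 0 of 6 had an unadjusted p under 0.05, against 4.06% of all genes. The smallest adjusted p over all genes was 0.862, 0.204 and 0.126 in the 3 comparisons. The values of treated and control tumors overlapped for each of the 6 genes. The comparisons of Oxy186 and of Oxy210 share the control tumors, so their directions are not independent of each other. In bulk tumor RNA, fewer cells of a kind and less RNA per cell cannot be told apart.

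The intervals show what sizes of change these tumors still allow. Against the control group the 95% interval of the fold change lay within 2-fold in either direction for 5 of 6 genes, both for Oxy186 and for Oxy210. The exception was CYP39A1, with 0.87 to 2.14-fold for Oxy186 and 0.95 to 2.41-fold for Oxy210. Between Oxy186 and Oxy210 it lay within 2-fold for 6 of 6. All these intervals come from fits without an offset for the GC trend of the libraries. With that offset SULT2B1 had a log2 fold change of 0.27 ± 0.36 (SE) for Oxy186 and 0.27 ± 0.36 for Oxy210. The limits of 2-fold are therefore given only for the fits without it.

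CYP24A1 (chromosome 20, 54153446 to 54173986, minus strand), the vitamin D 24-hydroxylase, had the largest counts, 6948 to 20185 per tumor. Its level was 499, 637.5 and 1096 CPM in the lowest, median and highest control tumor. It was 560, 835 and 1067 CPM in Oxy186-treated tumors and 833, 909 and 1259 CPM in Oxy210-treated tumors. The Oxy210-treated tumors all lay above the control median, but control tumors r2 and r6 reached into their range, at 871 and 1096 CPM. The log2 fold change was 0.45 ± 0.17 (SE; 95% interval 0.10 to 0.81) for Oxy210, with an unadjusted p of 0.0141 and an adjusted p of 0.295 in edgeR's test. For Oxy186 it was 0.18 ± 0.20 (-0.25 to 0.60; adjusted p = 0.873). Oxy186-treated against Oxy210-treated tumors gave -0.25 ± 0.15 (-0.57 to 0.07; adjusted p = 1.00), so the compounds did not differ beyond the spread between tumors, with an interval that reaches -0.57. CYP24A1 was the gene of the 6 whose estimate for Oxy210 changed least when the GC trend of each library entered the fit as an offset, from 0.45 to 0.39.

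CYP7B1 and CYP39A1 both add a hydroxyl group at the 7α position of oxysterols, CYP7B1 mainly on 25- and 27-hydroxycholesterol and CYP39A1 on 24-hydroxycholesterol. CYP7B1 (chromosome 8, 64587763 to 64798737, minus strand) was at 7.94, 15.9 and 20.1 CPM in the lowest, median and highest control tumor. It was at 10.7, 17.7 and 18.6 CPM in Oxy186-treated and 12.8, 17.8 and 22.3 CPM in Oxy210-treated tumors. The group medians were close together and the control group had the widest spread. Its log2 fold change was 0.11 ± 0.21 (-0.33 to 0.54; adjusted p = 0.921, edgeR) for Oxy186 and 0.34 ± 0.19 (-0.06 to 0.74; adjusted p = 0.415) for Oxy210. Within the Oxy186 group r1-r4 lay at 4.16 to 4.23 log2 CPM and r5-r7 at 3.43 to 3.74 log2 CPM, without overlap, and with r5-r7 alone the log2 fold change against the control group was -0.24. The 2 sets of Oxy186-treated tumors thus differed in CYP7B1 in the same split in which their GC slopes differed. Whether these are related was not tested. CYP39A1 split the same way, at 0.43 to 0.87 log2 CPM in r1-r4 and -0.09 to 0.40 log2 CPM in r5-r7. The share of all genes that split so was not determined, and the study chose r1-r4 from these same data.

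CYP39A1 (chromosome 6, 46549580 to 46652830, minus strand) was the lowest of the tested genes. It was at 0.402, 0.907 and 1.83 CPM in the lowest, median and highest control tumor. It was at 0.806, 1.21 and 1.69 CPM in Oxy186-treated and at 0.806, 1.34 and 2.12 CPM in Oxy210-treated tumors. The lowest tumor of each treated group lay above the lowest control tumor, and 6 of 7 tumors of each treated group lay above the control median. The log2 fold change was 0.45 ± 0.31 (-0.20 to 1.10; adjusted p = 0.862, edgeR) for Oxy186 and 0.59 ± 0.32 (-0.08 to 1.27; adjusted p = 0.397) for Oxy210, the largest estimates of the 6 genes, with intervals that include 0. It rested on 97, 135 and 150 counts over the 7 tumors of the control, Oxy186 and Oxy210 groups.

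HSD3B7 (chromosome 16, 30985207 to 30989147, plus strand), which oxidizes the 3β-hydroxyl group of 7α-hydroxylated sterols, was at 22.9, 26.6 and 39.8 CPM in the lowest, median and highest control tumor. It was at 15.9, 23.8 and 33.3 CPM in Oxy186-treated and 15.8, 20.5 and 31.4 CPM in Oxy210-treated tumors. Of the Oxy210-treated tumors 5 of 7 lay below the lowest control tumor, and the other 2 lay at 27.3 and 31.4 CPM within the control range. The log2 fold change was -0.40 ± 0.15 (-0.73 to -0.08; unadjusted p = 0.0168, adjusted p = 0.300 in edgeR's test) for Oxy210 and -0.28 ± 0.16 (-0.62 to 0.06; adjusted p = 0.862) for Oxy186. With GC offsets these became -0.23 (unadjusted p = 0.120) for Oxy210 and 0.16 for Oxy186, so the direction for Oxy186 depended on the GC trend. A gene on the opposite strand, ENSG00000279196, covers 64.8% of the exon bases of HSD3B7 and had 5 to 36 counts per tumor. Whether the authors counted reads by strand is not given in the sources used here, so the counts of HSD3B7 are uncertain.

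SULT2B1 (chromosome 19, 48552172 to 48599425, plus strand), which sulfates cholesterol and oxysterols, varied most between tumors among the 6 tested genes. It was at 4.23, 5.81 and 17.4 CPM in the lowest, median and highest control tumor. It was at 6.46, 7.62 and 10.8 CPM in Oxy186-treated and 2.52, 10.4 and 18.1 CPM in Oxy210-treated tumors. The coefficient of variation was 60.2% in the control group and 58.1% in the Oxy210 group but 19.95% in the Oxy186 group, and control r3, r4 and r6 lay at 12.6, 12.98 and 17.4 CPM, apart from the other 4. The 7 Oxy186-treated tumors all lay above the control median and below these 3 control tumors. The log2 fold change was -0.11 ± 0.31 (-0.75 to 0.54; adjusted p = 0.949, edgeR) for Oxy186 and 0.17 ± 0.39 (-0.66 to 0.99; adjusted p = 0.856) for Oxy210. The mean of log2 CPM was higher in the Oxy186 group (3.06 ± 0.27) than in the control group (2.95 ± 0.85), the opposite sign to the test's estimate, so no direction can be given. An opposite-strand gene covers 6.39% of its exon bases.

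SOAT1 (chromosome 1, 179293714 to 179358680, plus strand), which esterifies cholesterol and oxysterols in the endoplasmic reticulum for storage in droplets, was the steadiest. It was at 51.1, 59.6 and 67.4 CPM in the lowest, median and highest control tumor. It was at 48.9, 66.2 and 73.9 CPM in Oxy186-treated and 61.0, 62.5 and 73.3 CPM in Oxy210-treated tumors. All 7 Oxy210-treated and 6 of 7 Oxy186-treated tumors lay above the control median, by little. The log2 fold change was 0.13 ± 0.12 (-0.11 to 0.38; adjusted p = 0.862, edgeR) for Oxy186 and 0.18 ± 0.09 (-0.02 to 0.38; adjusted p = 0.394) for Oxy210. The difference between the compounds was -0.02 ± 0.11 (-0.24 to 0.21), the narrowest interval of the 6 genes. With GC offsets the estimates against the control group became -0.02 and 0.05.

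**Figure D2:**
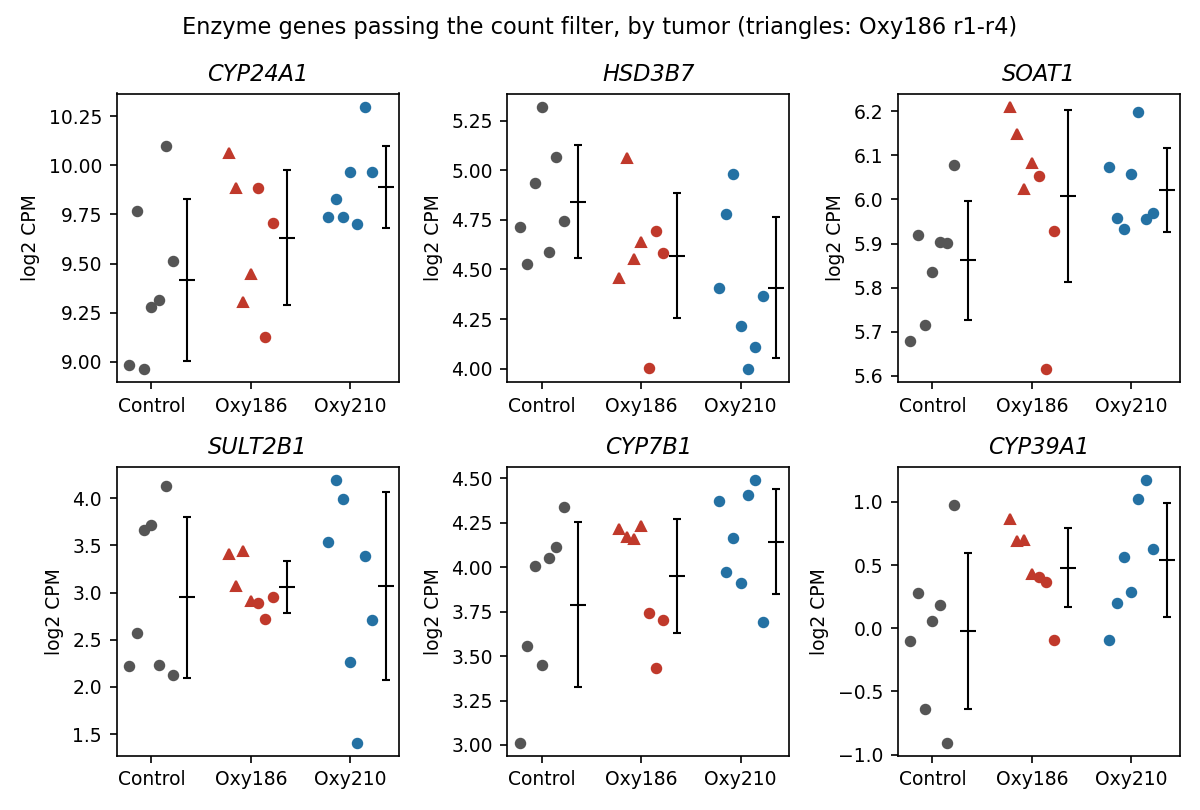
Log2 CPM of the 6 enzyme genes that passed the count filter, 1 point per tumor in the control, Oxy186 and Oxy210 groups (triangles are Oxy186 r1-r4), with the mean and SD of each group (n = 7) as a bar at its right. Values of the 3 groups overlap in every panel, and SULT2B1 spreads widely in the control and Oxy210 groups. The triangles of CYP7B1 and of CYP39A1 lie above the round points of r5-r7. The share of all genes that split so was not determined, and r1-r4 were chosen from these same data.

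For Oxy186 the sign of the 6 estimates split with the GC content of the genes. Exon GC content was 36.5% in CYP7B1, 38.2% in CYP39A1, 39.9% in SOAT1 and 45.0% in CYP24A1, and all 4 had positive estimates for both compounds against the control group. It was 60.1% in SULT2B1 and 61.8% in HSD3B7, and both were negative for Oxy186, while SULT2B1 was positive for Oxy210. Over all genes the median log2 fold change was 0.11 in the tenth with the lowest GC content and -0.37 in the tenth with the highest for Oxy186, and 0.14 and -0.27 for Oxy210. Over the 21 tumors Pearson's r of log2 CPM with the GC slope of the libraries was -0.63 for CYP7B1, -0.54 for CYP39A1, -0.80 for SOAT1, -0.38 for CYP24A1, 0.33 for HSD3B7 and 0.16 for SULT2B1, a description in which both measures come from the same libraries. Removal of the GC trend narrowed the SD over the tumors for the 4 genes of lower GC content but widened it from 0.35 to 0.45 for HSD3B7 and from 0.74 to 0.76 for SULT2B1. With GC offsets the estimates for Oxy186 became -0.06 for CYP7B1, 0.30 for CYP39A1, -0.02 for SOAT1, 0.07 for CYP24A1, 0.27 for SULT2B1 and 0.16 for HSD3B7, and 0 of 6 genes were called. With the offsets 0 of 6 were also called for Oxy210 and between the compounds, where 0% and 0.00611% of all genes were.

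**Figure D3:**
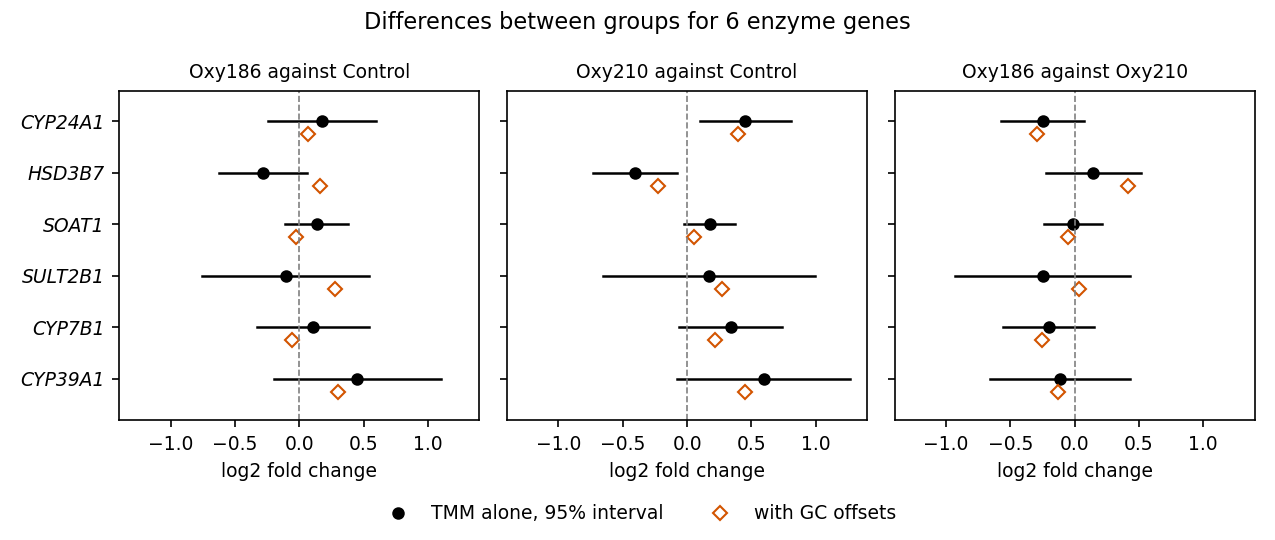
Log2 fold change of the 6 tested genes in Oxy186 against control, Oxy210 against control and Oxy186 against Oxy210 tumors (7 per group). Filled points with lines are the estimate and 95% interval, and open diamonds are the estimate with GC offsets. The interval misses 0 only for CYP24A1 and HSD3B7 in Oxy210 against control, and the diamonds of HSD3B7, SULT2B1, CYP7B1 and SOAT1 cross 0 for Oxy186.

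In the direct comparison of the compounds the estimates, given as Oxy186 minus Oxy210 on the log2 scale, were small. Beside CYP24A1 and SOAT1 they were -0.20 (-0.56 to 0.15) for CYP7B1, -0.11 (-0.66 to 0.43) for CYP39A1, 0.15 (-0.22 to 0.51) for HSD3B7 and -0.25 (-0.93 to 0.43) for SULT2B1, each with an adjusted p of 1.00 in edgeR's test. No difference was larger than the spread between tumors, and the widest interval, that of SULT2B1, reached from 0.525 to 1.35-fold.

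In Oxy186-treated samples r1-r4, the subset set apart by its own expression, 19.7% of 16852 genes were called against the control group. Of the 6 enzyme genes 0 were called, which with so few genes does not set them apart from all genes. SOAT1 had an unadjusted p of 0.0390, as 34.7% of all genes had one under 0.05. Its log2 fold change was 0.25 ± 0.11 (adjusted p = 0.122, edgeR), and -0.10 with GC offsets. The other estimates were 0.65 for CYP39A1, 0.34 for CYP7B1, 0.23 for CYP24A1, 0.05 for SULT2B1 and -0.17 for HSD3B7. With GC offsets they became 0.31 for CYP39A1, -0.02 for CYP7B1, 0.0028 for CYP24A1, 0.68 for SULT2B1 and 0.58 for HSD3B7 (adjusted p = 0.0694). None of the enzymes was called in this subset, with or without the offsets, and 4.97% of all genes were called with them.

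The genes around these enzymes were taken as 37 genes in 7 lists, of which 27 passed the filter in the comparisons with the control group. Of them 0 were called for Oxy186 and 0 for Oxy210, with 10 estimates above 0 and 17 below it in each case and a median log2 fold change of -0.08 and -0.10. The 6 tested enzymes had medians of 0.12 and 0.26, and all genes tested had medians of -0.0067 and 0.0086. Between the compounds 0 of 28 were called, with 20 estimates above 0 and 8 below it. With GC offsets 11 estimates lay above 0 and 16 below it for Oxy186, 9 and 18 for Oxy210, and 17 and 11 between the compounds. An unadjusted p under 0.05 was found for 0 of 27 genes for Oxy186 (3.79% of all genes), 2 of 27 for Oxy210 (13.8% of all genes) and 1 of 28 between the compounds (4.06% of all genes). They were HSD17B4 (0.22, and 0.083 with GC offsets), PAPSS2 (-0.30, and -0.35 with GC offsets) and EBP, picked out here by their p-values. HSD17B4 was named after its values were seen. PAPSS2 and EBP are also among the 2 genes with the highest mean log2 CPM in their lists.

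CYP7A1, SULT2A1 and SOAT2, relatives of enzymes described here, were almost without counts. They and the receptor GPR183 were chosen after values were seen. CYP7A1, the 7α-hydroxylase of cholesterol in liver, had 0 counts in the control group and 1 in each treated group, and SULT2A1, a steroid sulfotransferase, had 0 counts in all 21 tumors. SOAT2, the esterifying enzyme of liver and gut, had 22, 12 and 16 counts in the control, Oxy186 and Oxy210 groups. The oxysterol receptor GPR183, which senses 7α,25-dihydroxycholesterol, had 7, 6 and 4 counts.

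Among the vitamin D genes, which stand beside CYP24A1, 4 of 4 had negative estimates for both compounds and none passed the test. With GC offsets RXRA turned to 0.11 for Oxy186, which left 3 of 4 negative, and 4 of 4 were negative for Oxy210. VDR and CYP27B1 are described because of their known ties to CYP24A1, and were chosen after their values were seen. VDR, the receptor, had 1.31, 1.43 and 1.67 RPKM in the lowest, median and highest control tumor. It had 0.561, 1.14 and 2.04 RPKM in Oxy186-treated and 0.620, 1.18 and 1.69 RPKM in Oxy210-treated tumors. Treated tumors reached lower than any control tumor but overlapped the group. Its log2 fold change was -0.38 ± 0.25 (adjusted p = 0.862, edgeR) for Oxy186 and -0.30 ± 0.17 (adjusted p = 0.418) for Oxy210. CYP27B1, which makes the active hormone, had -0.46 ± 0.24 and -0.39 ± 0.20, CYP2R1, which makes its precursor, -0.08 and -0.10, and RXRA, the partner of VDR, -0.21 and -0.30. VDR and CYP27B1 lay near the level of CYP7B1 in the control group, with 1.49 and 1.72 RPKM, and far below CYP24A1.

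The 2 genes with the highest counts in each remaining list did not pass the test in either comparison with the control group. BAAT, which conjugates bile acids, had log2 fold changes of 0.27 ± 0.22 for Oxy186 and 0.19 ± 0.16 for Oxy210, and SCP2, a sterol carrier with thiolase activity, -0.07 and -0.10. CYP3A5 had -0.01 and -0.04, and POR, which passes electrons to microsomal P450 enzymes, -0.35 and -0.22. PAPSS1 and PAPSS2, which make the sulfate donor used by SULT2B1, had 0.04 and -0.26 for Oxy186 and 0.05 and -0.30 for Oxy210. With GC offsets POR had -0.11 and -0.07. LIPA and NCEH1, which hydrolyze cholesterol esters and so oppose SOAT1, had 0.23 and -0.13 for Oxy186 and 0.10 and -0.14 for Oxy210, and with GC offsets LIPA had 0.058 and 0.00018. DHCR7, of late cholesterol synthesis and the epoxide hydrolase complex, had -0.26 and -0.42. EBP, its partner in both, had 9.67, 13.7 and 21.7 RPKM in the lowest, median and highest control tumor, 10.4, 19.6 and 28.0 RPKM in Oxy186-treated and 5.98, 9.80 and 15.8 RPKM in Oxy210-treated tumors. Its estimates against the control group were 0.32 for Oxy186 and -0.43 for Oxy210, with 0.77 ± 0.25 on the log2 scale between Oxy186 and Oxy210, an unadjusted p of 0.00567 and an adjusted p of 1.00 in edgeR's test. Part of its exon bases (36.4%) are shared with another gene on the same strand.

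**Figure D4:**
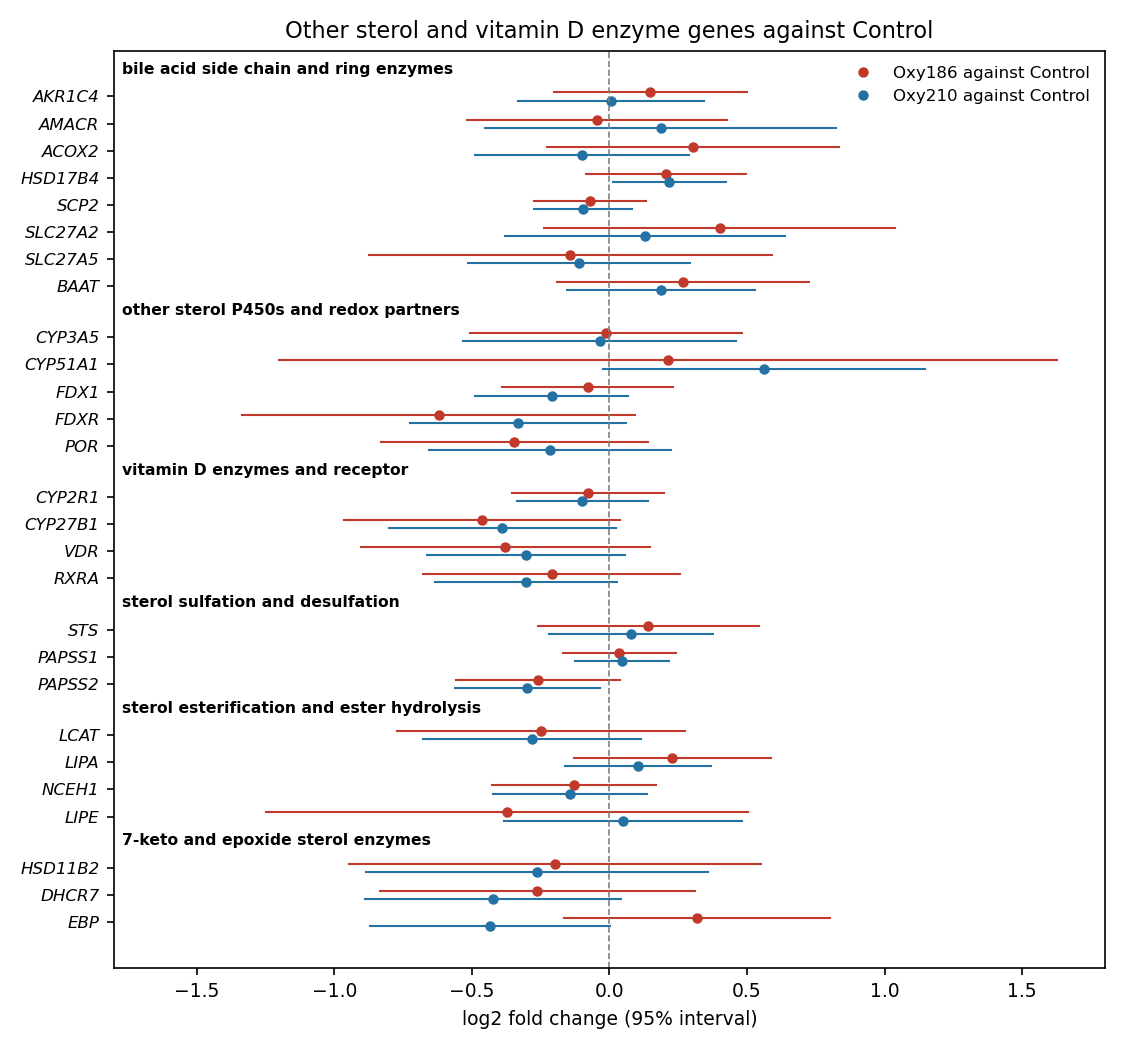
Log2 fold change with its 95% interval of the 27 tested genes of the surrounding lists, for Oxy186 (red) and Oxy210 (blue) against the control group (7 tumors each). These estimates are without GC offsets, with which 5 of the 27 turned sign for Oxy186 (RXRA to 0.11 among them) and 3 for Oxy210. All 4 vitamin D genes lie left of 0 for both compounds, EBP lies right of 0 for Oxy186 and left of it for Oxy210, and no gene passed the test.

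In r1-r4 against the control group 10 of 28 genes of the lists were called, 3 higher and 7 lower, against 4.73% of all genes higher and 15% lower. The higher ones were HSD17B4 (0.41), SLC27A2 (0.81) and LIPA (0.48) on the log2 scale. VDR (-0.69) and CYP27B1 (-0.81) were among the lower ones. With GC offsets 0 were called higher and 2 lower, CYP51A1 (-3.21) and FDXR (-0.90), against 0.872% of all genes higher and 4.1% lower (4.97% in all). CYP51A1 shares 68.2% of its exon bases with another gene on the same strand, so its counts are uncertain. These genes were named after their values were seen.

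For each tested enzyme the 2 genes with the most similar pattern over the 21 tumors were found among 16989 genes by Pearson's r of log2 CPM after removal of each library's GC trend. They were OPN3 (0.86) and PAPPA (0.85) for CYP24A1, GPS1 and TRAPPC1 (both 0.90) for HSD3B7, and SMTN (0.89) and FST (0.87) for SULT2B1. They were ALDH5A1 (0.75) and ARSB (0.74) for CYP7B1, and CMKLR1 (0.72) and AL121845.3 (0.70) for CYP39A1. Without removal of the GC trend AL121845.3 and CYP39A1 had r of 0.23, and without the 2 tumors farthest from the median 0.54. For SOAT1 they were POMT2 and RANBP10 (both 0.86), but without removal of the GC trend these were -0.49 and -0.57, so the likeness of SOAT1 rests on that step. For PAPPA and CYP24A1 the value was 0.92 without it. All points share the library they come from, and these values are a description. They are the highest of 16989 values over 21 tumors, and how high such values get without a relation was not tested. Among the 6 enzymes themselves HSD3B7 and SULT2B1 had r of 0.57 and HSD3B7 and SOAT1 -0.52, each with the GC trend removed. These 2 pairs were picked as the highest and lowest values. Without removal of the trend they had 0.52 and -0.41, and the highest values were 0.68 for CYP7B1 and SOAT1 and 0.61 for SOAT1 and CYP24A1.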

How the data were processed

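RNA-seq covered 21 A549-Luc2 xenograft tumors, 7 per group. The authors trimmed reads (Trimmomatic 0.39), aligned them with STAR 2.7.6a to a combined human (GRCh38.p13) and mouse (GRCm39) genome, kept human alignments and counted uniquely mapped reads with featureCounts (Subread 2.0.1), and deposited these raw counts. The authors made the deposited log2 CPM values (control group and Oxy186 r1-r4) with edgeR's filterByExpr and TMM. All 16852 genes of that table matched log2 CPM recomputed here (prior count 2) within 1e-06.

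The raw counts were tested with edgeR 4.0.16 in R 4.3.3 (filterByExpr, TMM, quasi-likelihood test), each pair of groups in its own fit. Genes outside the filter were called too low to judge. GC offsets were splines (4 degrees of freedom) fitted in each library to genes whose mean log2 CPM was 1 or more, with exon GC content from GENCODE 44 on GRCh38 for 99.8% of genes. Alternatives were limma voom (limma 3.58.1), DESeq2 1.42.0, RLE factors, library size alone, GC offsets, a replicate block with and without them, a joint fit of all 21 libraries, no count filter, a minimum of 10 counts per library, a fold change over 2 as well, and leaving out each library. The comparison of r5-r7 alone was added after seeing the data. Tests were tested on simulated data. Named genes were all 9 enzymes, pathway genes that passed a test of 7 against 7 tumors, the 2 with the highest mean log2 CPM in each list, and the 2 most similar to each enzyme. No pathway gene passed such a test. CYP7A1, SULT2A1, SOAT2, GPR183, VDR, CYP27B1, HSD17B4, SLC27A2, FDXR and CYP51A1 fall outside this rule and were named after their values were seen. The enzymes and lists were chosen with earlier results of these data known.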

Additional observations from a re-analysis of the deposited data

How the results depend on the processing

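The number of enzyme genes called was 0 in all 4 comparisons under every alternative that was run. The number of all genes called moved. For Oxy210 against the control group it was 92 with DESeq2 (21 higher), 11 with no filter and 2 with the replicate block (ALKBH7 and TFF2, named after seeing them), against 0. For Oxy186 against Oxy210 it was 14 with DESeq2 and 1 (RPL6P27) with no filter, with all 21 libraries in one fit, with GC offsets, and with the replicate block together with GC offsets. For Oxy186 r1-r4 it was 838 with GC offsets, 175 with the replicate block and GC offsets, 2373 with the replicate block alone and 1406 with a fold over 2 as well, against 3323, and 1835 (without Oxy186 r4) to 3957 (without control r7) with each library left out, 1875 without Oxy186 r3.

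Directions turned for values that had not passed the test. With GC offsets the log2 fold change for Oxy186 became -0.059 for CYP7B1, 0.16 for HSD3B7, 0.27 for SULT2B1 and -0.024 for SOAT1, and with the replicate block and GC offsets -0.029, 0.084, 0.41 and -0.034. SULT2B1 became 0.081 with limma voom and 0.091 with the replicate block. With Oxy186 r5-r7 alone CYP7B1 was -0.24 and SOAT1 -0.0025, and 0 of 17342 genes were called (777 at an unadjusted p under 0.05). For Oxy186 against Oxy210 SULT2B1 was 0.030 with GC offsets and 0.079 with the block and GC offsets, and SOAT1 was 0.0069 with no filter. For r1-r4, GC offsets gave CYP7B1 -0.018, HSD3B7 0.58 and SOAT1 -0.10, and the block with GC offsets HSD3B7 0.72 and SOAT1 -0.13. Leaving out each library gave -0.22 to 0.17 for SULT2B1 in Oxy186 (0.17 without control r6), -0.054 to 0.42 in Oxy210 (-0.054 without Oxy210 r2) and -0.067 to 0.30 in r1-r4. It gave -0.23 to 0.034 for CYP39A1 (0.034 without Oxy210 r6) and -0.078 to 0.043 for SOAT1 in Oxy186 against Oxy210. With GC offsets 5 of 27 surrounding genes turned sign for Oxy186 (RXRA and PAPSS1 among them), 3 of 27 for Oxy210 and 3 of 28 between the compounds. Apart from the GC offsets, which by construction remove the GC trend, the cause was not tested. SULT2B1 in the control group was 6.13 RPKM with the longest transcript, against 3.25.

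Same-numbered samples did not deviate together, with correlations of -0.40 to 0.05 for Oxy186 and control, -0.40 to 0.33 for Oxy210 and control and -0.32 to 0.11 for the compounds, and 0 samples correlated best with their own number, so the numbers were not taken as pairs. The replicate block changed no call of an enzyme gene. Depth limits CH25H, CYP27A1 and CYP46A1, which did not pass the filter in the 4 comparisons. Within the tests of 7 tumors per group no enzyme gene had an outlying tumor among 18 sets tested, where chance would give 0.9.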
